A study of Sus scrofa with 3 samples.

Results

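TNF, IL1B and the feedback genes of NF-kappa B were described in the liver of pigs that differed in testosterone status. The set held 10 genes out of 22945 mRNA features, namely the cytokine genes TNF, IL1B, IL1A, IL6, IL18, IL10 and IL1RN and the regulator genes NFKB1, NFKBIA and TNFAIP3. They were chosen by name after the measured values were known, because the expression levels of TNF and IL1B were lower in castrated than in intact liver while other immune genes were higher. Their values in that comparison are therefore a description of what selected them. A row of the same name was found for 9 of the 10 genes. IL1RN, which encodes the natural antagonist of the IL-1 receptor, matched no row and was not analysed here. Of the 9 genes, 8 had a level of at least 1 FPKM in all 3 libraries and IL6 did not. FPKM is a read count divided by transcript length and by a factor for the library. The factors in the deposited values were not proportional to the recovered reads, and against those reads the levels in CM were set low by 0.27 on the log2 scale relative to IM.

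The data were 3 RNA-Seq libraries of Wuzhishan pig liver, 1 for each group, and by the labels each library pooled the RNA of 3 pigs. The study's methods give a larger number of pigs per group, and they give the age in the labels, 6 to 7 months, as that on arrival, before acclimation and the weeks on the diet. All pigs were fed a diet rich in fat and cholesterol (HFC), so no library represents a standard diet. IM pigs were intact males (IM+HFC), CM pigs were castrated males (CM+HFC), and CMT pigs were castrated males that also received testosterone (CM+HFC+T). With 1 pooled library per group there was no measure of the variation between pigs and no test, so a ratio compares the pools and not the conditions. The reads recovered from the deposited values came to 32236954 for IM, 36504377 for CM and 26066999 for CMT. Hepatocyte markers were high in every library, with a summed level of 987489 FPKM in IM, compared with 750278 in CM and 731196 in CMT over 9 of 10 markers. ALB alone held most of each sum, at 690375, 476360.2 and 445509 FPKM. Of the 9 markers, 2 were above and 7 below a log2 ratio of 0 in CM versus IM.

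TNF and the IL-1 cytokines are secreted by activated macrophages, in the liver by Kupffer cells, and bind receptors that activate the IKK kinase complex. IKK marks the inhibitor I-kappa B alpha for destruction, which frees NF-kappa B dimers to enter the nucleus and switch on inflammatory genes. Among the genes switched on are NFKBIA, which encodes I-kappa B alpha itself, and TNFAIP3, which encodes the ubiquitin-editing enzyme A20, so that the signal limits itself.

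TNF, the gene of tumor necrosis factor, was at 106 FPKM in IM versus 19.0 in CM and 145 in CMT. CM was the low library, and the level in CMT was above that in IM. The level in CM was 0.179 times that in IM, with a 95% exact interval from 0.130 to 0.241, and the level in CMT was 7.64 times that in CM, with an interval from 5.67 to 10.5. CMT against IM gave a ratio of 1.36 with an interval from 1.13 to 1.64. These intervals rest on 222, 54 and 246 recovered reads and cover counting error only, not the variation between pigs. In a tissue, fewer cells of a type and less RNA per cell cannot be told apart.

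IL1B, which encodes interleukin-1 beta, was at 30.0 FPKM in IM against 6.01 in CM and 23.5 in CMT. As for TNF, CM was the low library. The ratio of CM to IM was 0.200, with an interval from 0.0359 to 0.758, and the ratio of CMT to CM was 3.91, with an interval from 0.893 to 23.4 that includes 1. The intervals are wide because only 11, 3 and 7 reads were recovered. That number follows from the shortest transcript length that fits the values, 146 bases, and is too low if the reads share a common factor. A further row, named IL-1beta, belongs to IL1B2, a near-identical copy of IL1B, so the division of reads between the copies is uncertain. It was at 2.94 FPKM in IM, compared with 0.359 in CM and 2.41 in CMT, again lowest in CM. The fitted length of that row was 1627 bases, with 12, 2 and 8 recovered reads. The reads of IL1B may thus be too low and its intervals too wide, which was not tested. With the levels of both rows added, the log2 ratio of IL1B was -2.37 for CM to IM, 2.02 for CMT to CM and -0.35 for CMT to IM.

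IL1A, the gene of interleukin-1 alpha, was scarce, at 3.49 FPKM in IM versus 1.92 in CM and 4.30 in CMT. IL6, the gene of the cytokine that induces the hepatic acute phase response, was at 1.42 FPKM in IM against 0.781 in CM and 1.31 in CMT. In both genes CM had the lowest level, and at 3 or 4 recovered reads in each library a difference between libraries was not detectable on these reads. The reads of IL1A rest on a fitted length of 456 bases and, as for IL1B, are too low if they share a common factor. The interval of the CM to IM ratio ran from 0.0806 to 3.25 for either gene.

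IL10, which encodes an anti-inflammatory cytokine that restrains macrophages, was at 19.8 FPKM in IM, compared with 11.4 in CM and 19.9 in CMT. CM was the low library, while IM and CMT were level at a ratio of 1.01. The ratio of CM to IM was 0.578 with an interval from 0.332 to 0.997, and that of CMT to CM was 1.74 with an interval from 0.978 to 3.10. IL18, the gene of an interferon gamma-inducing cytokine of the IL-1 family, went the other way. It was at 133 FPKM in IM versus 236 in CM and 187 in CMT, so that CM was the high library and CMT lay between the others. The ratio of CM to IM was 1.77, with an interval from 1.54 to 2.05, and the ratio of CMT to CM was 0.790, with an interval from 0.689 to 0.905.

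**Figure D1:**
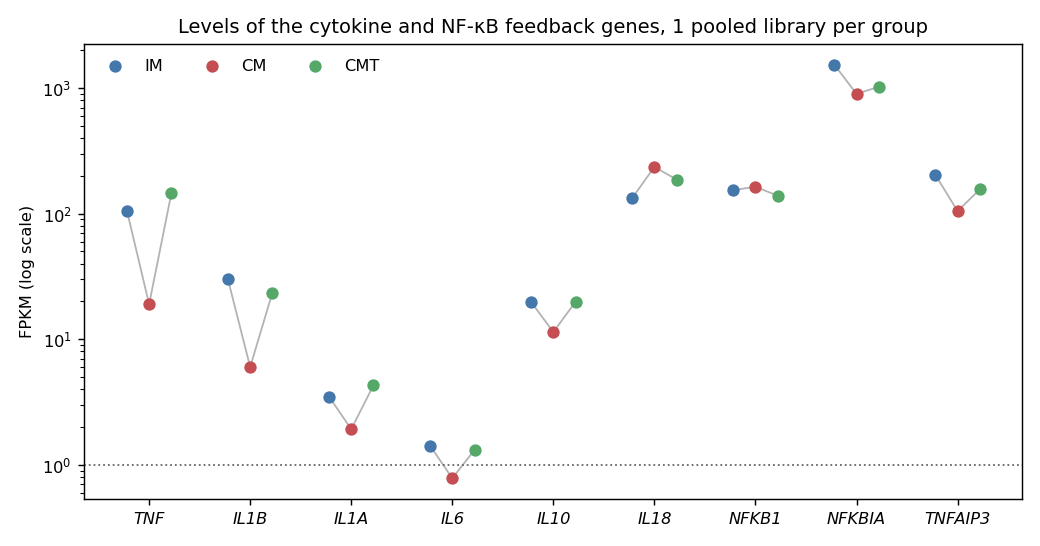
FPKM on a log axis of the 9 genes with a row, 1 point for each pooled library (IM, CM, CMT) and no error bar, with a dotted line at 1 FPKM. CM is the lowest point for TNF (19.0), IL1B, IL1A, IL6, IL10, NFKBIA and TNFAIP3 and the highest for IL18 (236) and NFKB1 (164).

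NFKB1, which encodes the p105 precursor of the p50 subunit, was at 154 FPKM in IM against 164 in CM and 139 in CMT. These levels were close to each other, and the interval of the CM to IM ratio, from 0.917 to 1.24, includes 1. NFKBIA was the most abundant of the 9 genes in each library, at 1539 FPKM in IM, compared with 901 in CM and 1024 in CMT. IM was its high library, and CMT stayed near CM. The ratio was 0.586 for CM to IM, with an interval from 0.558 to 0.615, 1.14 for CMT to CM and 0.665 for CMT to IM, with an interval from 0.630 to 0.703. TNFAIP3 was at 204 FPKM in IM versus 105 in CM and 156 in CMT, which placed CMT between the other libraries. Its ratio was 0.516 for CM to IM, with an interval from 0.485 to 0.550, 1.48 for CMT to CM and 0.766 for CMT to IM.

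The order of the levels, per transcript length, was similar at both ends in the 3 libraries, with NFKBIA first and IL10 or IL1B, IL1A and IL6 at the end. Between these ends the order changed. TNF was 5th in IM, below IL18, with overlapping intervals (92.7 to 121 for TNF), and in CMT it was 4th, at 145 FPKM against 139 for NFKB1, a pair whose exact Poisson intervals overlapped (127 to 164 and 121 to 158). In IM, NFKB1 (137 to 173) and IL18 (118 to 150.0) overlapped likewise, as did IL1B (15.0 to 53.7) and IL10 (13.6 to 27.8). In CM, IL18 (218 to 255) lay above NFKB1 (149 to 180.3), which lay above TNFAIP3 (100.3 to 110.5), and TNF (14.2 to 24.7) overlapped IL10 (7.48 to 16.8). The level of NFKBIA was 14.5 times that of TNF in IM, 47.5 times in CM and 7.07 times in CMT. The level of TNFAIP3 was 1.92, 5.55 and 1.08 times that of TNF in the same order. Relative to TNF, the transcripts of both feedback genes were most abundant in CM and least abundant in CMT. The ratio of IL10 to TNF was 0.186 in IM against 0.604 in CM and 0.138 in CMT. TNF was chosen for its low level in CM, so the high ratios to TNF in CM follow from that choice. The levels of NFKBIA, TNFAIP3 and IL10 were themselves lower in CM than in IM.

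A gene was counted as higher or lower when its ratio reached 1.5-fold. In CM versus IM, 6 of the 8 genes above the FPKM minimum were lower (TNF, IL1B, IL1A, IL10, NFKBIA and TNFAIP3) and 1, IL18, was higher. Among the 15613 mRNA features above the minimum, 12.1% were lower and 11.1% were higher, but the genes were chosen on this comparison and nothing is read from the excess. In CMT versus CM, which shares the CM library, 4 were higher (TNF, IL1B, IL1A and IL10) and 0 were lower, where 12.1% of all features were higher and 13.5% lower. The choice rested on low levels of TNF and IL1B in that same CM library, so nothing is read from this excess either. For TNF alone among these 4 higher genes the interval of the CMT to CM ratio excluded 1. The intervals of IL1B and IL1A rest on short fitted lengths, 146 and 456 bases, and may be too wide. In CMT versus IM, 1 gene was lower, NFKBIA at a log2 ratio of -0.59 against a threshold of 0.58 in size, and 0 were higher, where 10.1% of all features were lower and 6.67% higher. This call was lost under every scaling tried except that by the upper quartile. The median log2 ratio of the 8 genes was -0.83 in CM versus IM, 0.68 in CMT versus CM and -0.07 in CMT versus IM, where the medians of all features were -0.02, 0.01 and -0.01. The medians of the comparisons with CM are bound to the same choice.

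These ratios use the deposited scale. Scaling to equal column sums or to the recovered reads moved the median log2 ratio of all features by 0.26 and 0.27 in CM versus IM and by -0.25 and -0.26 in CMT versus CM. Relative to that shift, 4 of the 8 genes were lower in CM (TNF, IL1B, IL1A and TNFAIP3), and IL10 and NFKBIA no longer reached 1.5-fold. On those scales the log2 ratio of NFKBIA in CMT versus CM changed sign, from 0.18 to -0.06 and -0.08. IL10 was then not past 1.5-fold in CMT versus CM either, whereas IL18 was lower in that comparison, at -0.59 and -0.60. With recovered reads as the scale, 21.2% of all features were higher in CM than in IM and 6.71% were lower, and in CMT versus CM 6.55% were higher and 23.4% lower.

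**Figure D2:**
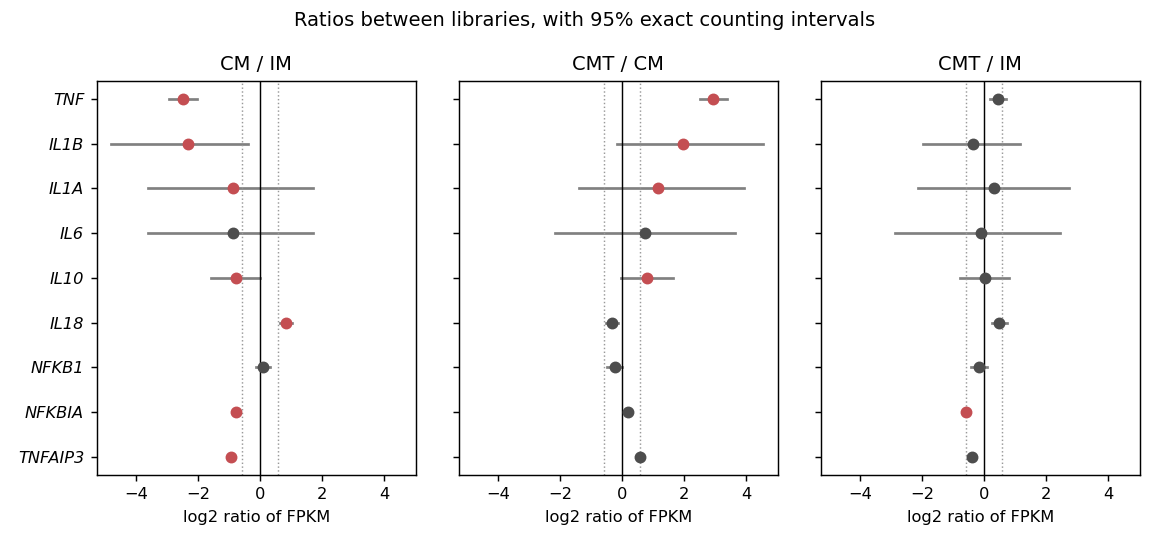
Log2 ratios of FPKM between libraries for the 9 genes, with 95% exact binomial intervals of the recovered reads as bars, red points for genes that reached 1.5-fold (dotted lines) with at least 1 FPKM in all 3 libraries, and grey points for the others. TNF lies at -2.49 in CM / IM and 2.93 in CMT / CM, each with a short bar, whereas the bars of IL1A and IL6 cross 0 in every panel.

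Set against all 15613 features, few were further out than the 2 cytokine genes that gave the set its name. Only 66 features, TNF included, had a log2 ratio of CM to IM as low as its -2.49, which is 0.423% of those above the minimum. For IL1B, at -2.32, the number was 84 features, or 0.538%. For NFKBIA and TNFAIP3 it was 1248 and 817 features, or 7.99% and 5.23%. These shares describe the choice of the genes and are not a test.

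The receptors through which the cytokines act were mostly level. Of 13 listed receptors and decoys, 12 had a row and 11 were above the FPKM minimum, of which 3 (27.3%) were lower and 0 were higher in CM than in IM. Among all features 12.1% were lower and 11.1% higher. IL1R2, a decoy receptor that binds interleukin-1 without signalling, was at 6.63 FPKM in IM, compared with 1.16 in CM and 5.05 in CMT. Its ratio of CM to IM, on 21 and 5 reads, had an interval from 0.0515 to 0.476. IL1RAP, the accessory chain of the IL-1 receptor, was at 10.9, 5.49 and 9.63 FPKM, and IL10RB, a chain of the IL-10 receptor, at 166, 94.7 and 128. The TNF receptor genes did not follow TNF itself, with TNFRSF1A at 309.6 FPKM in IM versus 307 in CM and 328 in CMT and TNFRSF1B at 388, 374 and 403. IL18BP, which encodes a secreted inhibitor of interleukin-18, was at 45.3, 67.4 and 45.2 FPKM, highest in CM like IL18 but below 1.5-fold.

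Among the genes that process the cytokines, 5 of 5 were above the minimum, of which 1 was higher and 1 was lower in CM than in IM. NLRP3, the sensor of the inflammasome that activates caspase-1, was at 17.7 FPKM in IM against 9.31 in CM and 13.3 in CMT. PYCARD, the adaptor of the same complex, was at 14.4, 25.6 and 33.5 FPKM and was highest in CMT. CASP1, the protease that matures interleukin-1 beta and interleukin-18, was at 70.5, 78.8 and 80.3 FPKM, and ADAM17, which sheds TNF from the cell surface, at 42.8, 55.8 and 48.3, both within 1.5-fold.

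Of 19 adaptors and kinases that lead to IKK, all above the minimum, 3 (15.8%) were higher and 1 (5.26%) was lower in CM than in IM. Among all features the shares were 11.1% and 12.1%. The higher genes were TRAF5, TRAF2 and BIRC3, which encode adaptors and a ubiquitin ligase of TNF receptor signalling, with log2 ratios of 0.77, 0.77 and 0.61. The lower gene was IKBKG, which encodes the regulatory IKK subunit NEMO, at 207 FPKM in IM, compared with 118 in CM and 235 in CMT. The catalytic subunits CHUK (107, 84.0 and 118 FPKM) and IKBKB (110.1, 120.3 and 103 FPKM) stayed within 1.5-fold.

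Among the other NF-kappa B subunits and I-kappa B proteins, 2 of 9 (22.2%) were higher and 2 (22.2%) were lower in CM than in IM. The shares of all features were 11.1% and 12.1%. RELB, a subunit of the alternative pathway, was at 50.0 FPKM in IM versus 92.5 in CM and 66.1 in CMT, and NFKBIE, the gene of I-kappa B epsilon, at 32.2, 56.9 and 38.4. NFKBIZ and NFKBID, which encode atypical nuclear I-kappa B proteins, were lower in CM, at 82.5, 47.6 and 59.2 FPKM and at 43.0, 24.0 and 28.9 FPKM. Their highest library was IM and CMT lay closer to CM, which was also the order in NFKBIA. RELA, which encodes the p65 subunit, was at 367, 329 and 389 FPKM, within 1.5-fold as NFKB1 was.

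Of 17 listed negative regulators, 12 had a row and were above the minimum, and 3 (25.0%) were lower and 0 were higher in CM than in IM. Among all features 12.1% were lower and 11.1% higher. ZFP36 encodes tristetraprolin, which destabilises TNF mRNA, and was at 326 FPKM in IM against 155 in CM and 192 in CMT. SOCS1, a suppressor of cytokine signalling, was at 72.0, 38.3 and 30.0 FPKM, and DUSP1, a phosphatase of MAP kinases, at 2021, 1294 and 926 FPKM. All 3 genes were also lower in CMT than in IM, with log2 ratios of -0.77, -1.26 and -1.13, and SOCS1 and DUSP1 were lowest in CMT. That is 25.0% of the list, where 10.1% of all features were lower in CMT than in IM. Of the 8 described genes above the minimum, only NFKBIA, at -0.59, was lower by 1.5-fold in CMT than in IM. That call was lost under every scaling tried except that by the upper quartile. TNF, at 0.45 in that comparison, was not lower.

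Of 28 listed NF-kappa B target genes, 24 had a row and 21 were above the minimum, and 5 of these were higher in CM than in IM and 5 were lower. CCL3L1 and CCL4, chemokine genes of macrophages, were lowest in CM like TNF, at 862 FPKM in IM, compared with 303 in CM and 984 in CMT and at 1271, 559 and 1318. Both belong to a family of near-identical genes, so the division of reads among them is uncertain. VCAM1, an endothelial adhesion molecule, was at 731, 421 and 629 FPKM and PTGS2, the inducible prostaglandin synthase, at 9.39, 5.84 and 9.52. In the opposite direction, CXCL10, an interferon-induced chemokine, was at 1582 FPKM in IM versus 5085 in CM and 2058 in CMT. CCL2, a monocyte attractant, was at 74.3, 162 and 96.1 FPKM. SELE, an endothelial selectin, was at 1.51, 5.53 and 1.24 FPKM, and CCL20 was at 3.78, 6.47 and 4.65 on 6, 14 and 6 reads. Of the 21 targets, 23.8% were thus higher and 23.8% lower, beside 11.1% and 12.1% of all features. The list of cytokine signalling through STAT3 held ligand genes such as OSM as well as kinases and transcription factors. Of its 10 genes, 9 had a row and 7 were above the minimum, with a median log2 ratio of 0.10 in CM versus IM.

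**Figure D3:**
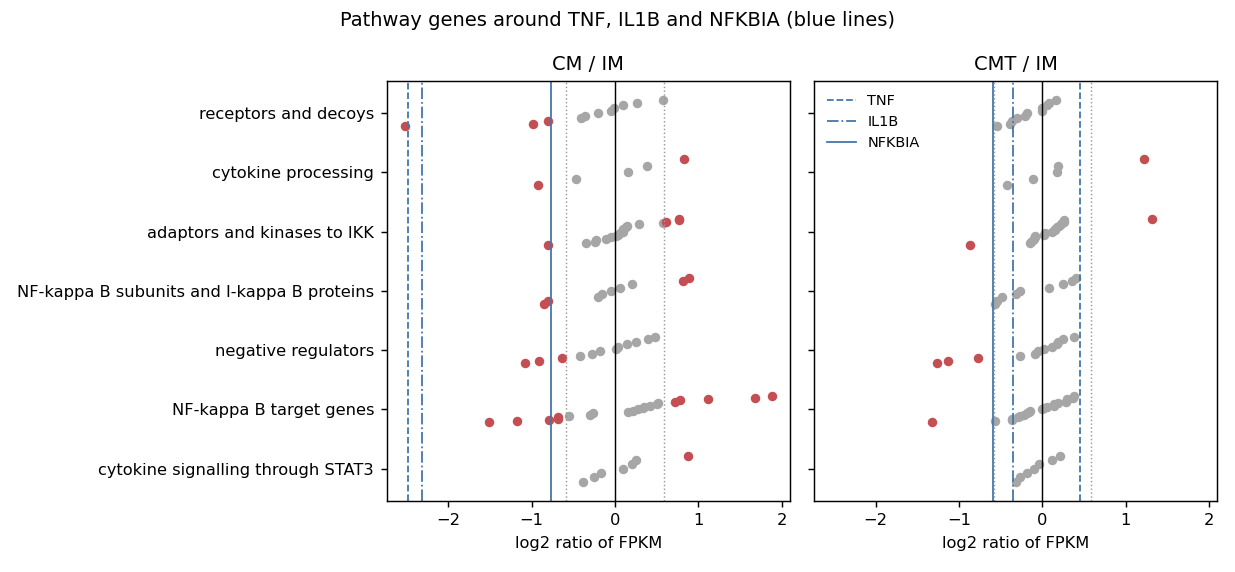
Log2 ratios of FPKM in CM / IM and CMT / IM, which share the IM library, for the listed pathway genes with at least 1 FPKM in all 3 libraries, 1 row per list and 1 point per gene, red where the ratio reached 1.5-fold (dotted lines). The blue lines mark TNF (-2.49 and 0.45), IL1B (-2.32 and -0.35) and NFKBIA (-0.77 and -0.59), and the single pathway gene beside TNF and IL1B in CM / IM is the decoy receptor gene IL1R2 (-2.52).

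Over the 7 lists together, 82 of 99 genes were above the minimum, of which 15 (18.3%) were lower and 12 (14.6%) were higher in CM than in IM, where 12.1% and 11.1% of all features were. The median log2 ratio of the 82 genes was 0.04, against -0.02 for all features and -0.83 for the 8 described genes. When scaled to the recovered reads, 7 were lower and 22 were higher. In CMT versus CM, 8 were higher and 9 were lower, and 4 and 24 on the recovered-read scale. In CMT versus IM, 2 were higher (PYCARD and TRAF5) and 5 were lower, namely ZFP36, SOCS1, DUSP1, CXCL2 and IRAK2.

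Markers of the cells that make TNF and IL1B were examined beside these values. Of 18 Kupffer cell and macrophage markers, 16 had a row and were above the minimum, and their summed level was 25582 FPKM in IM against 24386 in CM and 26673 in CMT. C1QA was at 4739, 4452 and 5481 FPKM, CD14 at 2374, 2089.8 and 1945, VSIG4 at 434, 384 and 469 and CSF1R at 161, 150.0 and 149, each within 1.5-fold in CM versus IM. Others were lower in CM without reaching the threshold, with CD163 at 1305, 909 and 1386 FPKM, CD5L at 5504, 3902 and 5181 and EMR1 at 374, 262 and 287. LAPTM5 (685, 959 and 617 FPKM), C1QB (2599, 3432 and 2901) and FCER1G (595, 784 and 743) were higher in CM, also within 1.5-fold. Of the 16 markers, 7 were above and 9 below a log2 ratio of 0 in CM versus IM. In CMT versus CM, 2 were past 1.5-fold higher, with CD163 at a log2 ratio of 0.61, and 2 were lower, with LAPTM5 at -0.64. Each is 12.5% of the list, where 12.1% of all features were higher and 13.5% lower. MARCO, a scavenger receptor gene of Kupffer cells, was the single marker of the list that was lower by 1.5-fold, at 414 FPKM in IM, compared with 82.8 in CM and 317 in CMT. Its log2 ratios of -2.32 and 1.94 stood beside those of IL1B, -2.32 and 1.97. MSR1, another scavenger receptor gene, was higher in CM, at 248, 388 and 232 FPKM. In CM versus IM each direction thus held 6.25% of the list, where 12.1% of all features were lower and 11.1% higher.

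Most neutrophil and monocyte markers were lower in CM than in IM, as TNF and IL1B were. All 11 were above the minimum, 7 (63.6%) were lower and 1 was higher, beside 12.1% and 11.1% of all features, and their summed level was 429 FPKM in IM versus 237 in CM and 315 in CMT. MPO, among the 7 lower, had only 9, 7 and 8 reads and an interval of the CM to IM ratio from 0.181 to 1.72. LYZ was at 40.3, 10.2 and 21.7 FPKM and FCN1 at 107, 60.9 and 139, lowest in CM as TNF was. For LYZ, on 32, 11 and 14 reads, the interval of the CMT to CM ratio, from 0.900 to 5.19, includes 1. The calprotectin genes S100A8 (41.3, 15.2 and 2.54 FPKM) and S100A9 (28.2, 8.98 and 4.52 FPKM) and the related S100A12 (63.8, 21.0 and 13.5 FPKM) had their lowest value in CMT, where TNF was highest. These levels rest on 20, 10 and 1 reads, on 46, 20 and 6, and on 29, 13 and 5. The intervals of their CMT to CM ratios (0.00386 to 1.18, 0.165 to 1.30 and 0.180 to 1.93) include 1. The order of CM and CMT is thus not resolved for them. The higher marker was ITGAM, an integrin gene of myeloid cells, at 11.1, 20.3 and 16.8 FPKM, and the neutrophil receptor genes CSF3R (13.4, 17.4 and 15.4 FPKM) and CXCR2 (15.1, 17.1 and 15.4 FPKM) were within 1.5-fold, with their highest level in CM. Red cell genes also differed, with HBB at 17158, 3399.7 and 5151 FPKM and ALAS2 at 77.5, 16.2 and 30.6, so the pools held unequal amounts of globin RNA. The part of these markers in the levels of TNF, IL1B and the other genes was not tested.

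Markers of T and NK cells went in the direction opposite to TNF. Of 12 listed, 11 were above the minimum, all 11 with a log2 ratio above 0 in CM versus IM and below 0 in CMT versus CM. In CM versus IM, 1 (GZMA, 9.09%) was higher by 1.5-fold and 0 were lower, where 11.1% and 12.1% of all features were. In CMT versus CM, 7 (63.6%) were lower and 0 were higher, where 13.5% and 12.1% of all features were. The summed level of these markers was 696 FPKM in IM against 899 in CM and 559 in CMT. The 6 B and plasma cell markers summed to 137, 155 and 139.9 FPKM. Endothelial markers, 6 of 8 with a row, summed to 1331, 1127 and 1224 FPKM with VWF lower in CM (25.5, 15.6 and 16.8), and the 8 stellate cell and fibroblast markers to 1548, 1629 and 1368. The cholangiocyte list held only EPCAM and SOX9 (40.0, 68.9 and 45.7 FPKM in sum, both higher in CM), since KRT19 and KRT7 matched no row. In the hepatocyte list, CYP2E1 alone passed 1.5-fold in CM versus IM, at 3148, 14546 and 54.4 FPKM. No marker with a row was at 0 in any library. CD68 and TIMD4 of the macrophage list, GNLY, CDH5, FCN3, G6PC and HBA matched no row.

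**Figure D4:**
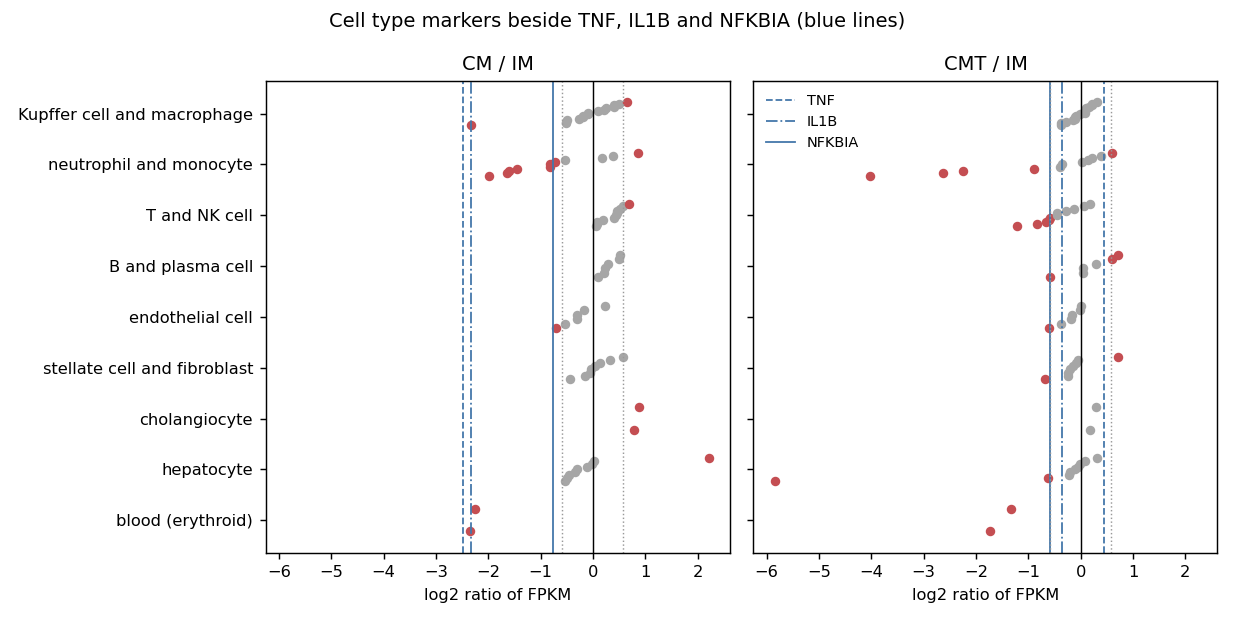
Log2 ratios of FPKM in CM / IM and CMT / IM, which share the IM library, for cell type markers with at least 1 FPKM in all 3 libraries, drawn as in the plot of the pathway lists. In CM / IM the markers beside the lines of TNF and IL1B are MARCO (-2.32), HBB (-2.34) and ALAS2 (-2.26), while the other macrophage markers lie between -0.52 and 0.65.

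The features whose levels were most like those of TNF, IL1B and NFKBIA over the 3 libraries were found by distance. Likeness was the distance between genes in log2 CM / IM and log2 CMT / CM, among features with a mean log2 level within 1 of that of the described gene. For TNF, the nearest of 5080 features was ADAD1, at 57.9 FPKM in IM, compared with 10.1 in CM and 67.5 in CMT, followed by ZBTB16 (66.2, 12.2 and 76.5 FPKM), ASB4, LOC100524171 and LOC100739251, at distances from 0.20 to 0.42. The nearest of 3797 features to IL1B were LOC100516643, NINL, PHYHIPL, LOC100739389 and C7H15orf27, at distances from 0.11 to 0.33. NFKBIA was most like TP53INP1 (939.8, 571 and 655 FPKM), LOC100518837, SLC2A2 (2122, 1323 and 1609 FPKM), TOB1 and GABARAPL1, the nearest of 915 features, at distances from 0.06 to 0.16. With 3 libraries such likeness rests on 2 ratios.

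TNF and IL1B were also set beside the genes next to them on their chromosomes in the RefSeq annotation of Sscrofa11.1. TNF lies between LTA and LTB, which encode the lymphotoxins. LTA had only 2, 3 and 0 reads in IM, CM and CMT, too few to compare, and LTB was at 12.6, 16.8 and 13.9 FPKM. Further out, NFKBIL1 was at 134, 129 and 116 FPKM and AIF1 at 439, 507 and 465. LTB, NFKBIL1 and AIF1 stayed within 1.5-fold in CM versus IM, where TNF did not. ATP6V1G2, the third gene on the side of LTA, was at 6.95, 4.61 and 6.62 FPKM, and its log2 ratio of -0.59 in that comparison was just past the threshold in the direction of TNF. IL1B lies beside IL1A, whose levels are given above, and ZNF169 (5.49, 5.04 and 6.75 FPKM). Further out, PTPDC1 was at 2.99, 3.50 and 3.80 FPKM and CKAP2L, past 1.5-fold in the direction opposite to IL1B, at 11.9, 18.6 and 4.29.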

How the data were processed

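Liver RNA was pooled within each group, sequenced, checked with FastQC and mapped by the authors with TopHat to Sscrofa 10.2. The authors deposited FPKM values for 34579 features, 22945 of them mRNA. The counting program and annotation are not given in the sources used here. Within a gene the values step in whole reads, and the steps gave the library divisors up to a common multiple. Of 6 multiples tried, the 4th was taken, since with it 9 of 13 mitochondrial genes had a length within 2 bases of the annotated one and with the others 0 had. The divisors were then 2.51, 3.42 and 2.04 reads per FPKM and kilobase for IM, CM and CMT, all read numbers and intervals rest on this choice, and reads were recovered for 23091 of 24277 features above 0 (95.1%). The smallest length up to 10000 bases that fits was taken, so reads are too low where a common factor is lost. Both mates of a pair may be counted, which makes the intervals too narrow.

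Ratios are of the deposited FPKM, without a pseudocount. A gene was counted past the threshold at 1.5-fold or more, provided that each library had 1 FPKM or more on the deposited scale. Intervals are 95% exact (Clopper-Pearson for ratios, Poisson for levels) and cover counting error only. No p-value was computed. The read recovery and the calls were tested on simulated data. Python 3.11.15, numpy 2.4.6, pandas 2.3.3, scipy 1.17.1 and matplotlib 3.10.9 were used.

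The described genes and the gene lists were chosen with earlier results of these data known. From each list the text names up to 4 genes per direction that passed in CM versus IM, by size of the log2 ratio, and the 5 features most like TNF, IL1B and NFKBIA. Other genes named in the text, such as TNFRSF1A, CASP1, RELA, CHUK, C1QA and CD163, were chosen after their values were seen. The alternatives used no FPKM minimum or a minimum of 10, a pseudocount of 1, a 2-fold threshold, 4 scalings and an interval that excludes 1. Adding the IL1B and IL-1beta rows was chosen after seeing the data. RefSeq (Sscrofa11.1) gave gene names, neighbours and the mitochondrial lengths, and no sequence was used. A gene that the naming rule covers is not reported here.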

Additional observations from a re-analysis of the deposited data

How the results depend on the processing

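At a threshold of 2-fold, 2 of the described genes (TNF and IL1B) passed in CM versus IM in place of 7, 0 in CMT versus IM in place of 1, and 7 pathway genes each in CM versus IM and CMT versus CM in place of 27 and 17. The count of described genes in CMT versus CM, 4 on the deposited scale, was 2 with an FPKM minimum of 10 and 1 (TNF) where the read interval also had to exclude 1. That last count depends on the fitted lengths, which may make the intervals of IL1B and IL1A too wide. The call of NFKBIA in CMT versus IM was lost, leaving 0, under median-ratio scaling, equal column sums and recovered-read totals. Pathway genes past the threshold in CMT versus CM numbered 27 with equal column sums and 28 with recovered-read totals. On the latter scale, 6.55% of all features were higher and 23.4% lower in that comparison. Of 138 log2 ratios of single described genes under an alternative, 122 stayed within the counting interval, 16 moved outside it (IL18, NFKBIA, TNFAIP3 and NFKB1 under equal column sums or recovered-read totals), and no called ratio changed sign. No paired analysis was possible because each group has 1 library, and no library could be left out for the same reason. By the recovered reads, depth limits IL1B, IL1A and IL6 most, at 3 to 11 reads. The reads of IL1B and IL1A rest on short fitted lengths, 146 and 456 bases, and may be too low.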

Other observations

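Some genes of the same pathways were lowest in CMT and not in CM. CXCL2, a neutrophil chemokine, was at 312 FPKM in IM, 259 in CM and 125 in CMT. IRAK2, a kinase of IL-1 receptor signalling, was at 19.6, 21.6 and 10.7 FPKM. OSM, a cytokine of the IL-6 family, was at 2.84, 2.68 and 0.498 FPKM on 14, 18 and 2 reads. TNF, by contrast, was highest in CMT. These genes were chosen after their values were seen.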
